A study of Mus musculus with 8 samples.

Results

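Cholesterol and fatty acid synthesis genes were followed in multipotent progenitors (MPPs) from the bone marrow of mice that did or did not express the NUP98-HOXA10hd fusion (NA). The list held 32 genes taken by name: 5 regulators of the SREBP pathway, 18 enzymes of cholesterol synthesis and 9 enzymes of fatty acid synthesis, elongation and desaturation. Of these, 31 had a row among the 37980 gene rows of the table, and Hmgcs1, the cytosolic HMG-CoA synthase, was not analysed here. Of the 31, 29 reached the minimum level for testing (10 normalised counts or more in 4 or more libraries), among 11451 genes tested in all. The other 2, Idi1 and Fads2, are given by their counts only.

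The 4 NA MPP libraries came from C57BL/6 mice of genotype NA LSL/+; Vav-Cre, in which the fusion is expressed from the Rosa26 locus in the cells where the Vav promoter drives Cre, the blood lineages. The 4 WT MPP libraries came from wild-type C57BL/6 mice, and the sources do not say whether these carried Vav-Cre. In both groups cells were sorted from bone marrow as Lin- CD48- c-kit+ Sca1+ CD135+ CD150-, with 1000 cells per library, and their cDNA was amplified before tagmentation. Age and sex are not given in the labels. NA1 stands for library 1 of the NA group and so on, and levels are normalised counts, that is, read counts divided by 1 size factor per library. The labels do not say that libraries of a group came from separate mice, so p-values measure only the spread between these libraries, which may be technical. As the samples are bulk RNA, fewer cells of a kind and less RNA per cell cannot be told apart.

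Cells make cholesterol from acetyl-CoA through the mevalonate pathway, which leads by way of squalene to lanosterol and then, through a chain of demethylations, reductions and isomerisations, to cholesterol. Fatty acids are made from the same acetyl-CoA, after carboxylation to malonyl-CoA, and are then elongated and desaturated. Both branches are classic targets of the SREBP transcription factors. These are made as membrane proteins, escorted by SCAP to the Golgi when sterols are scarce, cleaved there and released to the nucleus, whereas INSIG proteins hold the SCAP and SREBP complex in the endoplasmic reticulum when sterols are plentiful. INSIG1 is itself an SREBP target, so its transcript is part of a feedback loop. Dividing cells need both products for new membranes.

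Estimated depth lay between 3876903 and 4916971 reads per library and overlapped between the groups (4657580 ± 513166 reads in NA MPPs against 4376888 ± 531846 in WT MPPs, SD, n = 4 per group, exact two-sided permutation p = 0.286, with 0.0286 the smallest possible). Relative to counting error, NA4 and WT4 were the libraries of their groups closest to a weighted sum of the other 3. Over 4762 genes WT4 deviated from such a sum by a median of 4.88%, 1.25 times what counting error alone gives, against 1.58 to 2.18 times in the other WT libraries, and NA4 by 7.68% or 1.75 times, against 1.87 to 3.34 times. Results are therefore also given without NA4 and WT4, since p-values would be too small if these were not independent. Of the genes the sort selected for, Kit and Flt3 (CD135) had means of 1362 and 1442 in NA MPPs and 1197 and 1374 in WT MPPs. Ly6a (Sca1) was lower in NA MPPs (1277 against 1548, limma adjusted p = 0.0257). Of the genes it selected against, Cd48 was also lower (17.7 against 56.1, limma adjusted p = 0.00712). Slamf1 (CD150) did not pass the test (19.7 against 20.9, limma adjusted p = 0.57). Cd34, which was not part of the sort, was at 3395 and 3646. Of markers of other lineages, Pax5, Cd3e, Cd3g, Cd8a, Elane, Ly6g, Mcpt8 and Fcer1a were at 0 in every library, but others were present. Summed levels in NA and WT libraries were 113 to 201 and 184 to 302 for 5 T cell genes (1 lower in NA MPPs, Lck at 112 to 187 in NA libraries and 162 to 294 in WT libraries, limma adjusted p = 0.0371), 101 to 227 and 181 to 263 for 5 B cell genes, 4477 to 5137 and 4495 to 4685 for 7 erythroid genes, and 1718 to 1823 and 1823 to 2080 for 6 monocyte and macrophage genes. The erythroid gene Car1 was at 0 in all NA libraries and at 71.9, 1.13, 9.11 and 33.7 in WT1 to WT4. The part of other cell types in the results was not tested. Xist was abundant in the WT libraries and near 0 in the NA libraries, and Y-linked transcripts went the other way, so sex and genotype cannot be told apart.

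NA MPPs had more RNA of the sterol feedback gene Insig1 and of 3 enzymes on the path from lanosterol to cholesterol, Cyp51, Sc5d and Msmo1, and less of Acaca, the acetyl-CoA carboxylase that commits carbon to fatty acids. Acat2, Scd1 and Scd2 were also higher. In all, 7 of the 29 tested genes were higher in NA MPPs (24.1%) and 1 was lower (3.45%) at a limma adjusted p below 0.05, where 10.1% of all genes tested were higher and 7.87% were lower. As the members were chosen with earlier results of these data known, these shares are a description only. One of the 7, Scd1, reached the minimum level through its NA libraries, since only 1 WT library had it. The other 21 did not pass the test, 12 of them with a positive and 9 with a negative change. The median log2 fold change of the 29 genes was 0.08, against -0.01 over all genes tested. In 7 of the 29 (24.1%) every NA library lay above every WT library, against 11.5% of all genes tested. In 1 (3.45%) every NA library lay below, against 10.5%. The 7 without overlap included Scd1, and held Hsd17b7 but not Acat2. Without NA4 and WT4, 3 genes were higher (Insig1, Cyp51 and Sc5d), where 3.26% of all genes were, and 1 was lower (Acaca), where 1.25% were.

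**Figure D1:**
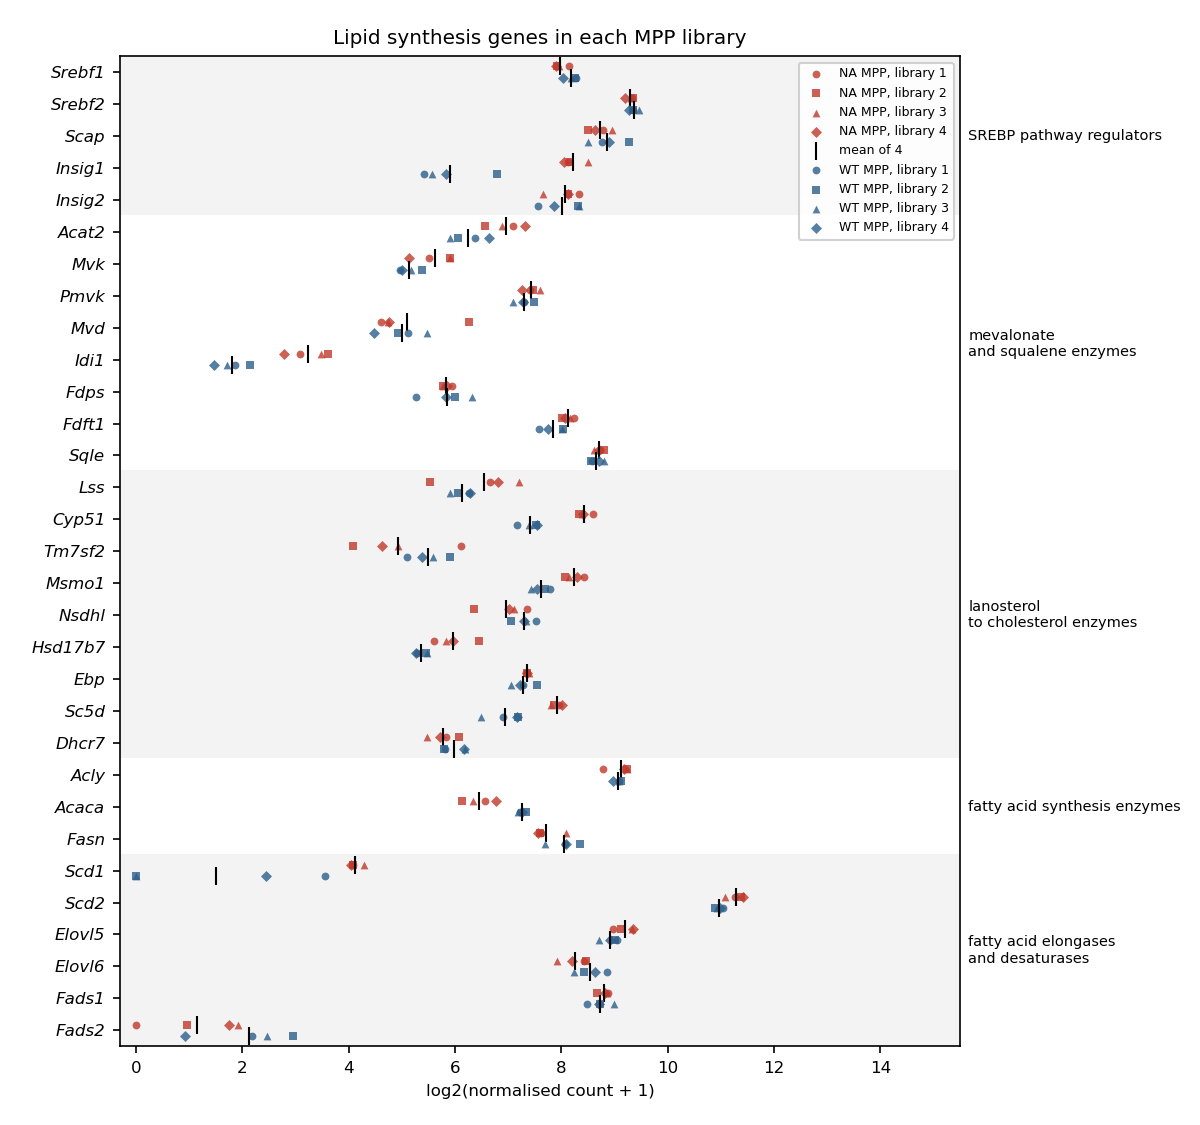
Levels of the 31 genes with a row, as log2(normalised count + 1) on the horizontal axis, in the 4 NA MPP libraries (red) and the 4 WT MPP libraries (blue), 1 symbol per library and a vertical bar at each group mean, grouped by role. The groups are clearly apart for Insig1, Cyp51, Sc5d and Msmo1 (NA above) and for Acaca (NA below), while most other genes overlap.

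The regulators were read first. Insig1 (ENSMUSG00000045294, chr5:28071363-28078662, plus strand, GRCm38) stood at 280, 285, 360 and 265 normalised counts in NA1 to NA4 and at 41.7, 110, 46.7 and 55.9 in WT1 to WT4. The lowest NA library was more than double the highest WT library, WT2. The means were 297 ± 42.7 in NA MPPs against 63.5 ± 31.4 in WT MPPs (SD, n = 4 per group), a ratio of 4.68. On the log2(normalised count + 1) scale the change was 2.31 (standard error 0.25, limma adjusted p = 3.96e-05), and without NA4 and WT4 it was 2.33 (adjusted p = 0.000899). The change of Insig1 lay beyond the 95th percentile of all genes tested, which was 0.93.

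The promoter of Insig1 is shown because this gene had the lowest adjusted p of the list and is a known SREBP target. It is the RefSeq window from 250 bases before to 50 bases after an annotated start (GRCm38, chr5:28071162-28071461, plus strand), written 5′ to 3′. Capitals mark a CCAAT box on the opposite strand (read as ATTGG), at position -216 (where -1 is the base before the start), and the letters CACNCCAC on the opposite strand, at -9. The latter are the core of the sterol regulatory element TCACNCCAC, and this core was added after the promoters had been seen. The RefSeq start lies downstream of the GENCODE gene start. The letters at -9 therefore lie inside the annotated gene, and the CCAAT box at -216 lies before it.
Insig1 promoter: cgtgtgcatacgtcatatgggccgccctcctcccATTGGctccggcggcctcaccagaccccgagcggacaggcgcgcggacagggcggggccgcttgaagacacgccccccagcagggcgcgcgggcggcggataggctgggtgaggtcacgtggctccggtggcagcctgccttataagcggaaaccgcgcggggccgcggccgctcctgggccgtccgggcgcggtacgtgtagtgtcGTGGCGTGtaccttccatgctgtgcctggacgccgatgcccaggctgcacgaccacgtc

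The other regulators did not pass the test. Insig2, the second INSIG, which is less tied to SREBP activity, was at 321, 280, 202 and 279 in NA1 to NA4 and at 188, 318, 320 and 232 in WT1 to WT4. The groups overlapped almost fully (271 ± 49.6 and 265 ± 65.5, SD, n = 4 per group, log2 fold change 0.05, 95% confidence interval -0.35 to 0.44, limma adjusted p = 0.888), in contrast to Insig1. Srebf2, whose product mainly drives cholesterol genes, was at 641, 648, 635 and 587 in the NA libraries and at 653, 651, 707 and 619 in the WT libraries. Its change was -0.07 (interval -0.26 to 0.12, limma adjusted p = 0.642). Srebf1, whose product mainly drives fatty acid genes, was at 281, 240, 248 and 239 in the NA libraries and at 311, 305, 291 and 260 in the WT libraries. Only NA1 exceeded a WT library, WT4. The change was -0.21 (interval -0.46 to 0.04, limma adjusted p = 0.231). Srebf1 shares 109 exon bases with Rai1 on the opposite strand, and strand use in counting is not given in the sources used here. Rai1 was lower in NA MPPs (log2 fold change -0.48, limma adjusted p = 0.00842). Scap, the escort protein, was at 442, 360, 497 and 399 in the NA libraries and at 432, 618, 361 and 474 in the WT libraries, a change of -0.13 (interval -0.46 to 0.19, limma adjusted p = 0.577), with WT2 the highest of all.

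Among the mevalonate and squalene enzymes, 1 of 7 tested was higher in NA MPPs (14.3%, against 10.1% of all genes tested) and none was lower, with a median log2 fold change of 0.14. Acat2 (ENSMUSG00000023832, chr17:12942890-12960747, minus strand), the cytosolic thiolase that joins acetyl-CoA units at the head of the pathway, was at 136, 93.1, 117 and 158 in NA1 to NA4 and at 82.6, 65.7, 59.2 and 98.5 in WT1 to WT4. The groups overlapped, as NA2 lay below WT4. The means were 126 ± 27.7 and 76.5 ± 17.7 (SD, n = 4 per group), and the change was 0.72 (standard error 0.22, limma adjusted p = 0.0364). It no longer passed under 10 of 21 other settings, and without NA4 and WT4 its adjusted p was 0.148.

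The steps after Acat2 gave no further calls. Mvk, Pmvk and Mvd, which phosphorylate mevalonate and decarboxylate the product, had changes of 0.49, 0.14 and 0.10 (limma adjusted p = 0.233, 0.545 and 0.893). For Mvd 1 library, NA2 at 76.1, lay far above the other 7, which ranged from 21.3 to 43.3. Fdps, which makes farnesyl pyrophosphate, changed by -0.02 (interval -0.56 to 0.52) and shares 26.7% of its exon bases with the overlapping gene Gm43738 on the same strand. Fdft1, squalene synthase, was at 278 ± 19.0 in NA MPPs against 231 ± 34.2 in WT MPPs (SD, n = 4 per group), a change of 0.28 (interval -0.01 to 0.56, limma adjusted p = 0.163), and shares 18.3% of its exon bases with Ctsb on the opposite strand. Sqle, the squalene epoxidase that is a rate-controlling step of the pathway, was among the most even genes between the groups. Its libraries ran from 390 to 444 in NA MPPs and from 375 to 445 in WT MPPs, a change of 0.05 (interval -0.17 to 0.27, limma adjusted p = 0.764).

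Idi1, the isopentenyl pyrophosphate isomerase, did not reach the minimum level. It stood at 7.47, 11.3, 10.2 and 5.91 normalised counts in NA1 to NA4 and at 2.66, 3.40, 2.28 and 1.78 in WT1 to WT4, so that every NA library lay above every WT library. In estimated reads this was 36 in all NA libraries together and 10 in all WT libraries. The ratio per unit depth was 3.56, with an exact 95% interval of 1.73 to 8.03 that covers counting error only and not the spread between libraries.

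The enzymes from lanosterol to cholesterol were counted together with Lss, which forms lanosterol. All 9 were tested, 3 were higher in NA MPPs (33.3%, against 10.1% of all genes tested) and none was lower, with a median log2 fold change of 0.41. In 4 of the 9 every NA library lay above every WT library, against 11.5% of all genes tested. Cyp51 (ENSMUSG00000001467, chr5:4081145-4104746, minus strand), the cytochrome P450 that removes the 14-alpha methyl group of lanosterol, was at 388, 321, 336 and 337 in NA1 to NA4 and at 143, 183, 166 and 185 in WT1 to WT4. The libraries of each group lay close together and the groups were far apart. The means were 345 ± 29.6 and 169 ± 19.5 (SD, n = 4 per group), a ratio of 2.04, and the change was 1.03 (standard error 0.13, limma adjusted p = 0.000138). Cyp51 shares 3.76% of its exon bases with Akap9 on the opposite strand, whose change was -0.05.

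Sc5d (ENSMUSG00000032018, chr9:42251595-42264256, minus strand), the sterol C5 desaturase near the end of the path, was at 249, 233, 223 and 257 in NA1 to NA4 and at 119, 145, 88.8 and 143 in WT1 to WT4. The groups did not overlap. The means were 241 ± 15.7 and 124 ± 26.2 (SD, n = 4 per group), a ratio of 1.94, with a change of 0.98 (standard error 0.17, limma adjusted p = 0.00142). Msmo1 (ENSMUSG00000031604, chr8:64718139-64733792, minus strand), the sterol C4-methyl oxidase that acts after Cyp51, was at 342, 269, 281 and 313 in the NA libraries and at 219, 207, 171 and 185 in the WT libraries. The groups did not overlap, but the gap between NA2 and WT1 was smaller than for the former genes. The means were 301 ± 32.9 and 195 ± 21.8 (SD, n = 4 per group), with a change of 0.62 (standard error 0.13, limma adjusted p = 0.00571). Without NA4 and WT4 Cyp51 and Sc5d remained past the threshold (changes of 1.08 and 1.02, adjusted p = 0.0039 and 0.0188), and Msmo1 did not (0.58, adjusted p = 0.092).

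The promoters of these enzymes are shown for the CCAAT box, the site of the factor NF-Y that acts beside SREBP at many sterol genes. They are RefSeq windows of the same extent on GRCm38, for Cyp51 (chr5:4104648-4104947), Sc5d (chr9:42264251-42264550) and Msmo1 (chr8:64733529-64733828), all on the minus strand and written 5′ to 3′ along the gene. The RefSeq start of Sc5d lies upstream of the GENCODE gene start, so its window could not be matched to a GENCODE transcript, unlike the windows of Cyp51 and Msmo1, and is given as the RefSeq table has it. Capitals mark the CCAAT box on either strand, once in Cyp51 (-29), once in Sc5d (-24) and 3 times in Msmo1 (-160, -96 and -55). For Cyp51 and Msmo1 the RefSeq start lies inside the GENCODE gene, and so do all the boxes marked before it.
Cyp51 promoter: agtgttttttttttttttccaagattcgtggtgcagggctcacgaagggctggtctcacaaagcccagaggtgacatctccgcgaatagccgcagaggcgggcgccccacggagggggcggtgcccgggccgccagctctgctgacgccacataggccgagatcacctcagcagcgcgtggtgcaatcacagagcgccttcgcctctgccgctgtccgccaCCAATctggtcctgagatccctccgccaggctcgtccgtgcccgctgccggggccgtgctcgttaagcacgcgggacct
Sc5d promoter: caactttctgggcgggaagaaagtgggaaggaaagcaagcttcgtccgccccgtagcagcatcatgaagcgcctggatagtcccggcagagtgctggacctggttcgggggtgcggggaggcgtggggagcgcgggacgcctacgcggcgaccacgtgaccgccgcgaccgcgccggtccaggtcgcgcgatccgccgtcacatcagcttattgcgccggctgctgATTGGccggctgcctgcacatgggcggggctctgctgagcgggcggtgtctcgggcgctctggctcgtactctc
Msmo1 promoter: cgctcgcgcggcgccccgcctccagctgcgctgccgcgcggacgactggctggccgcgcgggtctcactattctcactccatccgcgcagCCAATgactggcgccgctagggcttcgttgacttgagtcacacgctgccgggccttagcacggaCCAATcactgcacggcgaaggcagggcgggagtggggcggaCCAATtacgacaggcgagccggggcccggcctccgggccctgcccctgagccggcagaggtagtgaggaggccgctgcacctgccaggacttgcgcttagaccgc

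A RefSeq promoter window was matched for 26 of the 32 genes, and 21 of these (80.8%) held a CCAAT box on either strand in at least 1 window. Among the genes tested in all, 8795 had a window and 42.9% of them held the box, while 37.4% of all 32851 windows did. Lss and the 8 enzymes after it all held it, those that were higher in NA MPPs and those that were not. The full sterol regulatory element TCACNCCAC was found in the window of Hmgcs1 alone (3.85% of the 26 genes), and in 1.44% of all 27025 genes with a window. Its core CACNCCAC, which every full element also contains, was found in Insig1, Hmgcs1 and Acat2 (11.5%), and in 7.12% of all genes with a window. A match is a run of letters and not a bound site, and its absence says only that the letters are not in this window.

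The other 6 of these 9 enzymes did not pass the test. Hsd17b7, the sterol 3-keto reductase, came nearest. It was at 47.6, 86.5, 56.3 and 61.4 in NA1 to NA4 and at 38.2, 43.0, 43.3 and 37.3 in WT1 to WT4, so that all NA libraries lay above all WT libraries, with NA2 highest. Its change was 0.60 (interval 0.07 to 1.12, limma adjusted p = 0.111). Lss, which closes squalene epoxide to lanosterol, was at 99.9, 45.1, 146 and 111 in the NA libraries and between 59.2 and 77.2 in the WT libraries. NA2 was the lowest of all 8, and the change of 0.41 (limma adjusted p = 0.356) became 0.75 and passed the test without it (adjusted p = 0.0348).

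Ebp, the sterol isomerase, and Dhcr7, which makes cholesterol in the last step of 1 branch, changed by 0.08 and -0.21 (limma adjusted p = 0.724 and 0.559). Nsdhl, the sterol C4 decarboxylase, changed by -0.34 (limma adjusted p = 0.264). Ebp and Nsdhl are X-linked, and the groups differed in Xist. Tm7sf2, the sterol C14 reductase that follows Cyp51, was the most uneven among NA libraries, at 68.1, 16.0, 29.5 and 23.6, and ran from 33.2 to 58.9 in WT libraries (change -0.55, limma adjusted p = 0.346). It shares 12.1% of its exon bases with Vps51 on the same strand, and Vps51 was lower in NA MPPs (log2 fold change -0.85, limma adjusted p = 0.0282).

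**Figure D2:**
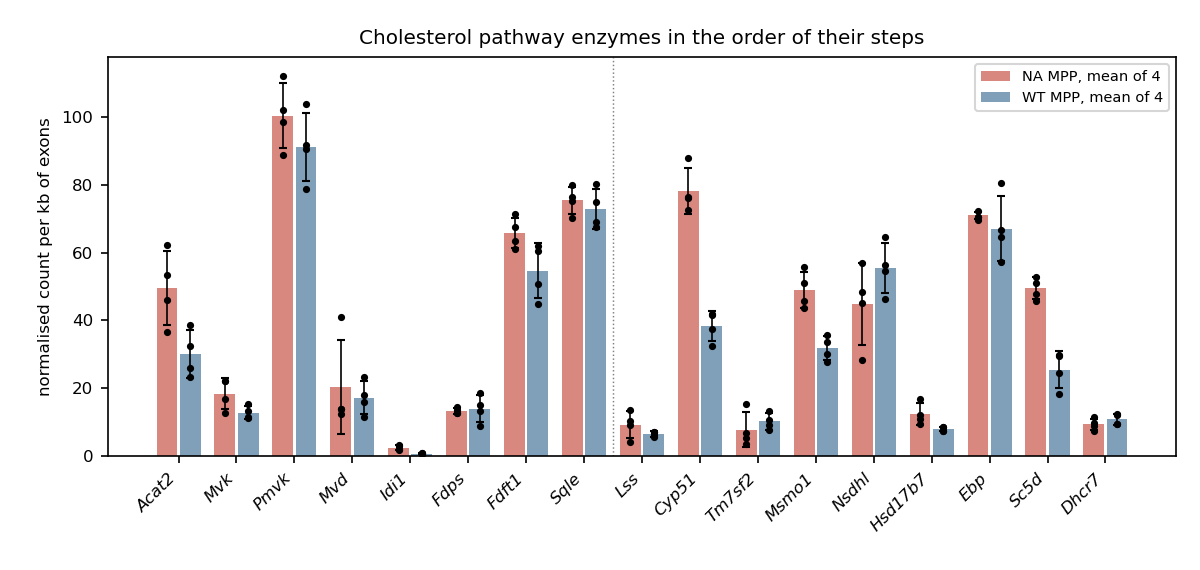
Cholesterol pathway enzymes in the order of their steps, as normalised counts per kb of annotated exons (bars are means of 4 libraries, error bars SD, points single libraries, red NA MPP and blue WT MPP), with a dotted line where lanosterol is formed. Cyp51 rose from 38.4 to 78.2 and Sc5d from 25.5 to 49.4 per kb, while neighbours such as Sqle (72.9 and 75.4) and Ebp (67.3 and 70.8) were even.

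The fatty acid synthesis enzymes held no higher gene. Of the 3 synthesis enzymes tested, 1 was lower (33.3%, against 7.87% of all genes tested). The median log2 fold change of these 3 was -0.34, against -0.01 over all genes tested. Acaca (ENSMUSG00000020532, chr11:84129672-84401651, plus strand), the acetyl-CoA carboxylase that makes malonyl-CoA, was at 93.3, 69.6, 80.3 and 109 in NA1 to NA4 and at 148, 161, 145 and 153 in WT1 to WT4. Every NA library was lower than every WT library, and the WT libraries were within a narrow range. The means were 88.0 ± 16.9 and 152 ± 6.98 (SD, n = 4 per group), a ratio of 0.58, with a change of -0.80 (standard error 0.18, limma adjusted p = 0.00689). Without NA4 and WT4 the change was -0.90 (adjusted p = 0.0451).

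Fasn, the fatty acid synthase that uses malonyl-CoA, was at 195, 192, 270 and 187 in the NA libraries and at 268, 326, 205 and 273 in the WT libraries. NA3 lay within the WT range and WT3 within the NA range, and the change of -0.34 did not pass the test (interval -0.69 to 0.01, limma adjusted p = 0.164). Acly, which splits citrate to give cytosolic acetyl-CoA to both pathways, was at 558 ± 78.3 in NA MPPs against 536 ± 24.6 in WT MPPs (SD, n = 4 per group), a change of 0.05 (interval -0.20 to 0.29, limma adjusted p = 0.816).

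Of 5 tested elongases and desaturases, 2 were higher in NA MPPs (40.0%, against 10.1% of all genes tested) and none was lower, but Scd1 reached the minimum level through its NA libraries, so its count beside Scd2 is no support. Scd1 and Scd2 encode stearoyl-CoA desaturases, which put the first double bond into saturated fatty acids. Scd2 (ENSMUSG00000025203, chr19:44293674-44306864, plus strand) was the most abundant gene of the list, at 2478, 2651, 2166 and 2724 in NA1 to NA4 and at 2119, 1909, 1959 and 2030 in WT1 to WT4. The groups did not overlap, but NA3 was close to WT1. The means were 2505 ± 248 and 2004 ± 91.0 (SD, n = 4 per group), a ratio of 1.25, with a change of 0.32 (standard error 0.08, limma adjusted p = 0.0184). It did not pass under 5 of 21 other settings, among them scaling by the total (0.25, adjusted p = 0.0537) and leaving out NA4 and WT4 (0.28, adjusted p = 0.145).

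Its paralogue Scd1 (ENSMUSG00000037071, chr19:44394455-44407879, minus strand) was near the lower limit of detection. It was at 15.9, 16.0, 18.5 and 15.4 in NA1 to NA4 and at 10.7, 0, 0 and 4.44 in WT1 to WT4, which corresponds to 17, 17, 20 and 13 estimated reads against 12, 0, 0 and 5. All NA libraries lay above all WT libraries. The change of 2.62 had a wide interval (0.93 to 4.32, limma adjusted p = 0.0345) and fell short of the threshold under 10 of 20 other settings. Reads of Scd1 and Scd2 can be hard to assign where the paralogues are alike.

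Elovl5 and Fads1, which elongate and desaturate polyunsaturated fatty acids, had changes of 0.28 and 0.08 (limma adjusted p = 0.102 and 0.665). For Elovl5 the change passed the test without NA1 (0.36, adjusted p = 0.0447). Elovl6, which elongates palmitate, was at 308 ± 50.6 in NA MPPs against 377 ± 70.6 in WT MPPs (SD, n = 4 per group), a change of -0.29 (limma adjusted p = 0.211). Fads2, the desaturase that precedes Fads1, did not reach the minimum level. It was at 0, 0.94, 2.77 and 2.36 in the NA libraries and at 3.55, 6.79, 4.55 and 0.89 in the WT libraries. This was 6 against 15 estimated reads, a ratio of 0.395 with an exact 95% interval of 0.126 to 1.08 for counting error only.

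**Figure D3:**
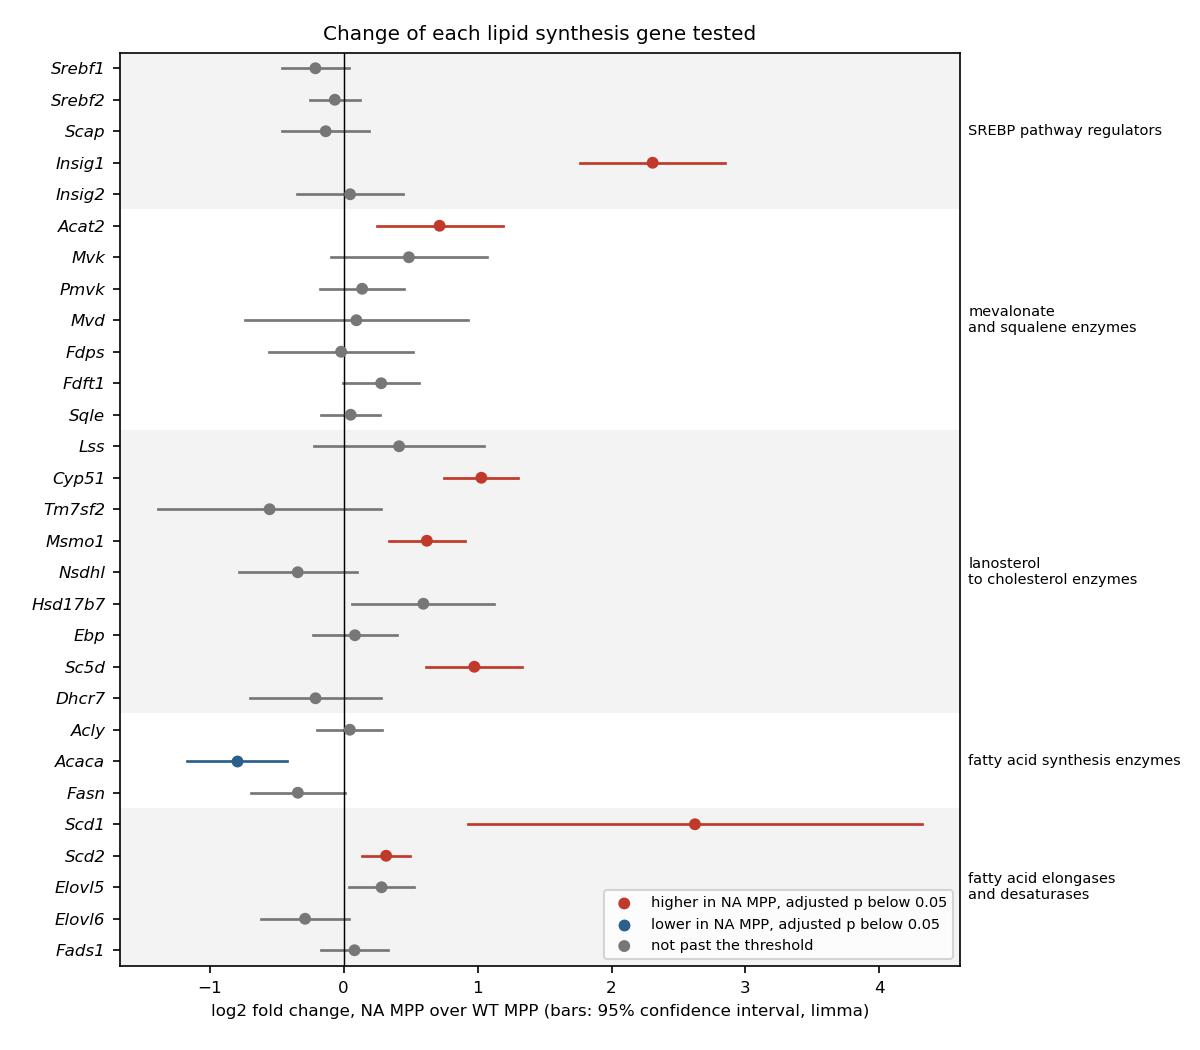
Log2 fold change of NA MPP over WT MPP for the 29 tested genes (points) with 95% confidence intervals from limma (lines), grouped by role, red where higher, blue where lower and grey where the adjusted p was not below 0.05. Insig1 at 2.31 and Cyp51 at 1.03 have intervals far from 0, Scd1 at 2.62 has the widest interval, and Acaca at -0.80 is the only blue point.

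The levels of the genes can be compared with each other only per length. Per kb of exons, Scd2 was highest in both groups (458 in NA MPPs and 367 in WT MPPs), followed by Elovl5 (168 and 138) and Acly (106 and 102). Insig1 was at 96.1 per kb in NA MPPs, near Fads1 at 93.1, and at 20.5 in WT MPPs. Among the cholesterol enzymes Pmvk was highest (100 and 91.3), and Cyp51 stood above Sqle and Ebp in NA MPPs but below both in WT MPPs. The lowest levels were those of Fads2, Idi1 and Scd1. The spread between libraries, as the SD in percent of the mean, ran from 1.5% (Ebp) to 67.7% (Tm7sf2) in NA MPPs among tested genes, and from 4.54% (Scd2) to 134% (Scd1) in WT MPPs.

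Other lipid genes were counted from 6 lists with 90 genes, of which 83 were tested. In all 10 were higher (12.0%) and 3 were lower (3.61%), where 10.1% and 7.87% of all genes tested were, so the share of higher genes was near that of all genes. The median log2 fold change was -0.02. Of these lists, SREBP processing and sterol sensing had most higher genes. There 5 of 14 were higher and none was lower, with a median of 0.22. Prkaa2, a catalytic subunit of the energy sensor AMPK, had the largest change, 1.10 (39.4 ± 11.5 in NA MPPs against 17.6 ± 4.30 in WT MPPs, SD, n = 4 per group, limma adjusted p = 0.0364). A further 3 are named after their values were seen. Mbtps1, the site-1 protease that makes the first cut in SREBP, changed by 0.74 (limma adjusted p = 0.00312), Erlin2 by 0.69 (0.00244) and the ubiquitin ligase gene Syvn1 by 0.80 (0.0159). Mbtps2, the site-2 protease that makes the second cut, changed by -0.04.

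Of 14 tested genes for sterol uptake, transport, storage and efflux, 2 were higher (14.3%, against 10.1% of all genes tested). None was lower, and the median was -0.04. Stard4, a carrier of cholesterol between membranes, was at 947, 1135, 939 and 1082 in NA1 to NA4 and at 755, 528, 634 and 664 in WT1 to WT4, with no overlap and a change of 0.67 (limma adjusted p = 0.00123). Osbp, the oxysterol-binding protein, changed by 0.45 (277 ± 9.11 and 203 ± 4.31, SD, n = 4 per group, limma adjusted p = 0.0138). None of 9 isoprenoid branch enzymes passed (median -0.14). These use farnesyl pyrophosphate made by the same pathway.

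The lists around fatty acids were mixed, where 10.1% of all genes tested were higher and 7.87% were lower. Among 8 genes for citrate, acetyl-CoA and NADPH supply, Idh1 was higher (0.49, limma adjusted p = 0.0244) and Acss2, which makes acetyl-CoA from acetate, was lower (-0.43, limma adjusted p = 0.0163). Among 22 other fatty acid and glycerolipid synthesis genes 1 was higher and 2 were lower. The higher one was Mlxip, a glucose-responsive transcription factor (0.37, limma adjusted p = 0.0225). Hsd17b12, the ketoreductase of fatty acid elongation, was at 314, 238, 389 and 351 in NA1 to NA4 and at 623, 566, 627 and 642 in WT1 to WT4, with no overlap and a change of -0.95 (limma adjusted p = 0.00038). Tecr, the reductase that completes the elongation cycle, changed by -0.36 (limma adjusted p = 0.0344). Of 16 fatty acid oxidation genes only Hadh passed (0.59, limma adjusted p = 0.00127). Without NA4 and WT4, 3 of 83 tested genes of the 6 lists were higher (3.61%) and 1 was lower (1.2%), near the 3.26% and 1.25% of all genes. These were Mbtps1, Stard4 and Hadh (adjusted p = 0.0478, 0.0209 and 0.0268) and Hsd17b12 (adjusted p = 0.00675). The other called genes named above lost their call, with adjusted p from 0.0592 (Erlin2) to 0.224 (Prkaa2).

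**Figure D4:**
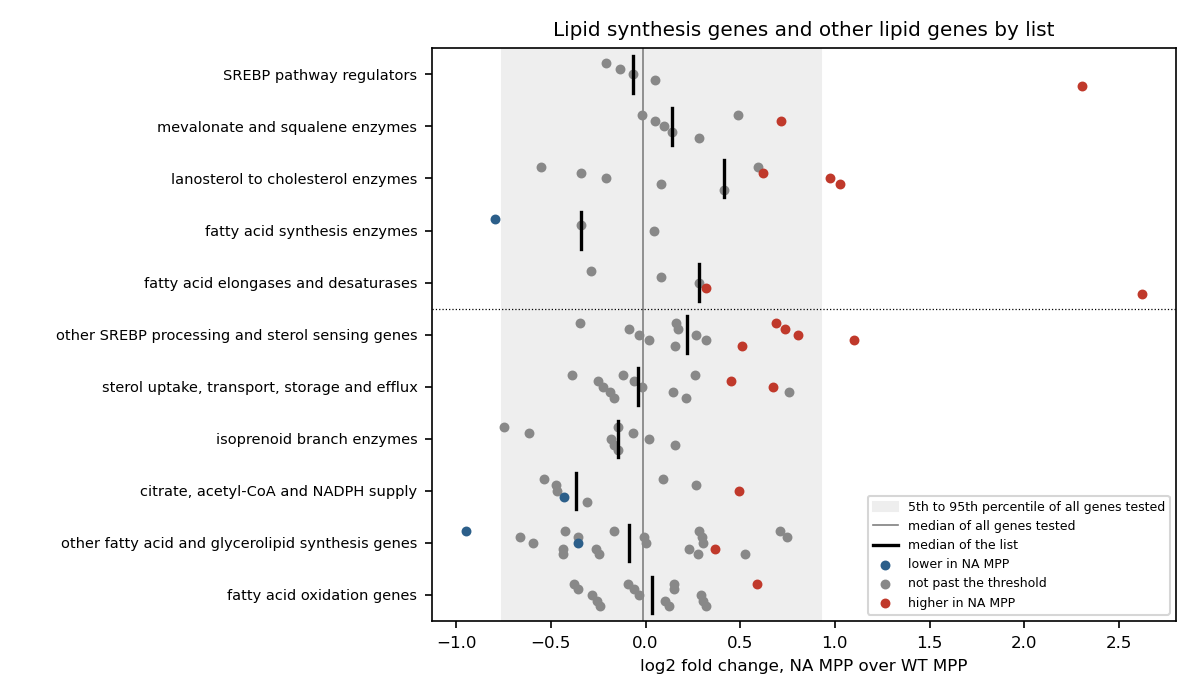
Log2 fold change of NA MPP over WT MPP for each tested gene (points) of the 5 groups of synthesis genes above the dotted line and of the 6 other lipid lists below it, with each list's median (black bar), the median of all genes tested (grey line) and their 5th to 95th percentile (grey band, -0.76 to 0.93). Insig1, Cyp51, Sc5d, Scd1 and Prkaa2 lie beyond the upper edge of the band and Acaca and Hsd17b12 beyond the lower one.

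Other transcripts moved with the same groups, where 10.1% of all genes tested were higher and 7.87% were lower. Of 10 early response genes such as Fos and Egr1, which also react to cell handling, 8 were higher in NA MPPs, and their summed level was 35903 to 41498 in NA libraries and 3569 to 12594 in WT libraries. Of 12 cycling markers 3 were higher and none was lower, with sums of 2876 to 3164 and 2366 to 3088. Pcna alone made up much of these sums, at 1326 to 1600 and 1179 to 1391. Among those that did not pass, Ccnb2, Mcm2 and Mcm5 changed in the negative direction and the others in the positive. Of 8 granulocyte markers 3 were tested and 2 of these were lower, with sums over all 8 of 1382 to 1697 and 1744 to 2584. Prtn3 alone made up most of these sums, at 1371 to 1677 in NA libraries and 1711 to 2291 in WT libraries. The part of these differences in the changes of the lipid genes was not tested.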

How the data were processed

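RNA of 8 MPP libraries was sequenced on a NextSeq 500 after cDNA amplification and Nextera XT preparation. The submitters' processing notes name bcl2fastq, RSEM, DESeq2 and mm10, without versions. The deposited values are a normalised signal per gene: RSEM expected counts that the authors scaled by a size factor. Between 98.34% and 98.97% of low values per library were multiples of a unit (0.888 to 1.18) within 0.05 read, and this unit gave the estimates of depth and reads. Intervals from reads cover counting error only, since amplified reads are not independent molecules.

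Samples were grouped by title. Symbols, exons and gene coordinates came from GENCODE M21 (32916 of 37980 rows named). The test was limma (version 3.58.1, under R version 4.3.3), with a mean-variance trend and no covariates, on the scale log2(value + 1), on genes with at least 10 in at least 4 libraries, and p-values were adjusted by Benjamini-Hochberg over all genes tested. The added 1 understates changes of low genes. The code was tested on simulated data. Every member could be named. Values in every library were given for members past the threshold and for the regulators, and of other lists the called genes with the highest and lowest change were named. A few results are not reported here. The members and lists were chosen with earlier results of these data known. Alternatives were other pseudocounts, filters, scalings, variance models and covariates, and libraries left out.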

Additional observations from a re-analysis of the deposited data

Results flagged for a closer look

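Single libraries stood apart from the other 3 of their group, by Dixon's gap test at the 95% level, in 3 of 58 groups of 4 values, where chance gives 2.9. Mvd was at 76.1 normalised counts in NA2 and between 23.3 and 26.0 in the other NA libraries. Acly was at 442 in NA1 and between 580 and 606 in the other NA libraries. Fasn was at 270 in NA3 and between 187 and 195 in the other NA libraries. None of these 3 genes passed the test between the groups.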

How the results depend on the processing

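The changes of Insig1, Cyp51, Sc5d and Acaca kept their direction and stayed past the threshold under all 21 alternatives, with the largest adjusted p at 0.00316, 0.0039, 0.0188 and 0.0451. The number of higher members was 4 without the variance trend, and from 3 (without NA4 and WT4) to 7 with libraries left out, with 4 when NA4 alone was left out. The number of lower members was 1 throughout. For the other lipid lists, leaving out libraries gave 3 to 12 higher and 1 to 6 lower genes. Among all genes, 1152 higher and 901 lower became 375 and 144 without NA4 and WT4, 825 higher and 595 lower without the trend, and 940 higher and 631 lower with depth as a covariate. Scaling by the total moved the median of all genes to -0.08 and gave 925 higher and 1314 lower.

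Signs turned only for members that did not pass the test. With the GC trend removed, Srebf2 changed by 0.085, Scap by 0.036, Insig2 by -0.031 and Fdps by 0.002. With total scaling, Insig2 changed by -0.021, Sqle by -0.017 and Acly by -0.023. With depth as a covariate Fdps changed by 0.076. With libraries left out, Scap ran from -0.25 to 0.005, Insig2 from -0.10 to 0.18, Mvd from -0.30 to 0.26, Fdps from -0.22 to 0.13 and Acly from -0.009 to 0.15. The cause was not tested.

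With the replicate block, 7 members were higher and 1 lower. The replicate numbers were not taken as pairs: correlations of same-numbered libraries' deviations were 0.087, 0.027, 0.013 and 0.158, and NA2 and NA3 did not correlate best with their own number. Among the alternatives planned, edgeR and DESeq2 were not run, because the table is already scaled by size factors and holds fractional reads. At this depth changes of genes with few reads, such as Idi1, Fads2 and Scd1, were poorly resolved.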
